A study of Mus musculus with 6 samples.

Results

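The AP-2 transcription factor family was measured by microarray in the mandibular arch, from which the lower jaw develops. Its members were the genes Tfap2a, Tfap2b, Tfap2c, Tfap2d and Tfap2e, chosen by symbol, and all 5 were among the 19938 genes measured. Each was represented by 1 probe set, a group of array probes summarised to 1 value. The rule for choosing between probe sets, the highest mean over all 6 arrays, therefore had nothing to decide. Mouse embryos of strain C57BL/6 at embryonic day 9.5 (E9.5) were either Tbx1+/+ (wild type, 3 arrays) or Tbx1-/- (Tbx1 null, 3 arrays), with no other treatment or allele named. Tbx1 is a T-box gene needed for the pharyngeal arches and pouches. Tissue was pooled from 3 embryos of each genotype, per the series description. Whether every array had a separate pool is not stated, so the p-values reflect only how these arrays vary, which may be partly technical. The arrays were Affymetrix Mouse Gene ST 1.0 arrays. Values are log2 expression levels, and each unit is a doubling of signal.

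AP-2 proteins bind GC-rich palindromic DNA as dimers and are known for their roles in neural crest cells and surface ectoderm, the tissues from which most of the facial skeleton and its covering epithelium arise. Tfap2a and Tfap2b act together in facial neural crest, and mutations of the human genes cause branchio-oculo-facial syndrome and Char syndrome, respectively. Tfap2c is best known from trophoblast, germ cells and ectoderm, Tfap2d from the midbrain and retina, and Tfap2e from the olfactory bulb.

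Tbx1 itself was read first, as a check of the labels. It fell by 1.94 on the log2 scale in Tbx1 null (SE 0.10, limma adjusted p = 0.000684), and its arrays did not overlap between genotypes. Transcripts of the mandibular arch, such as Dlx5, Hand2, Barx1 and Prrx1, had wild-type means of 12.86, 10.86, 12.47 and 12.70 on the log2 scale. Hand2 and Prrx1 were higher in Tbx1 null by 0.56 and 0.19, without overlap (limma adjusted p = 0.326 and 0.297). Dlx5 and Barx1 had changes of 0.071 and 0.020, with overlap (limma adjusted p = 0.79 and 0.99). Wild type replicate 1 stood apart in part of this check, with Barx1 at 11.90 against 12.77 and 12.74 on replicates 2 and 3, and Hand2 at 10.45 against 11.03 and 11.10. It was also the highest array for Tfap2a, Tfap2b and most crest markers, so values without it are given beside those that it moves most. Array medians lay between 7.98 and 8.04. Precision here is set by having 3 arrays a genotype rather than by any read depth, and the SE of a log2 change had a median of 0.0579 over all genes.

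Among the AP-2 genes, Tfap2b showed the largest difference between genotypes, with lower values in Tbx1 null, but no member passed the threshold over all genes. With limma and Benjamini-Hochberg adjustment, 0 of 5 members had an adjusted p under 0.05, against 0.16% of all genes tested. At an unadjusted p under 0.05, 1 of 5 was lower (Tfap2b) and 0 were higher, against 3.94% and 5.5% of all genes (9.44% in either direction). Of the 5, 4 had a log2 change below 0, as did 53.5% of all genes, and the family's median change was -0.14, against -0.0061 over all genes. The family was chosen with the value of Tfap2b in these data already known, so that value is a description of these arrays.

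Tfap2b (probe set 10345016, Entrez gene 21419), which encodes AP-2 beta, had log2 levels of 10.69, 9.96 and 10.27 on wild type replicates 1, 2 and 3. On Tbx1 null replicates 1, 2 and 3 the levels were 9.70, 9.43 and 9.90. The 2 genotypes did not overlap, yet the lowest wild-type array and the highest Tbx1 null array were only 0.066 apart, and the wild-type arrays themselves spanned 0.73. Arrays without overlap and lower in Tbx1 null were found for 7.06% of all genes. The means were 10.31 ± 0.37 (SD, n = 3) and 9.68 ± 0.23 (SD, n = 3). The log2 change was -0.63 (SE 0.18, 95% confidence interval -1.06 to -0.20), which is 1.55-fold lower, with a limma p of 0.00978 and an adjusted p of 0.327. Over the 15 alternative analyses the adjusted p ran from 0.155 to 0.669. In a bulk sample, fewer cells of a type and less RNA per cell cannot be told apart.

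**Figure D1:**
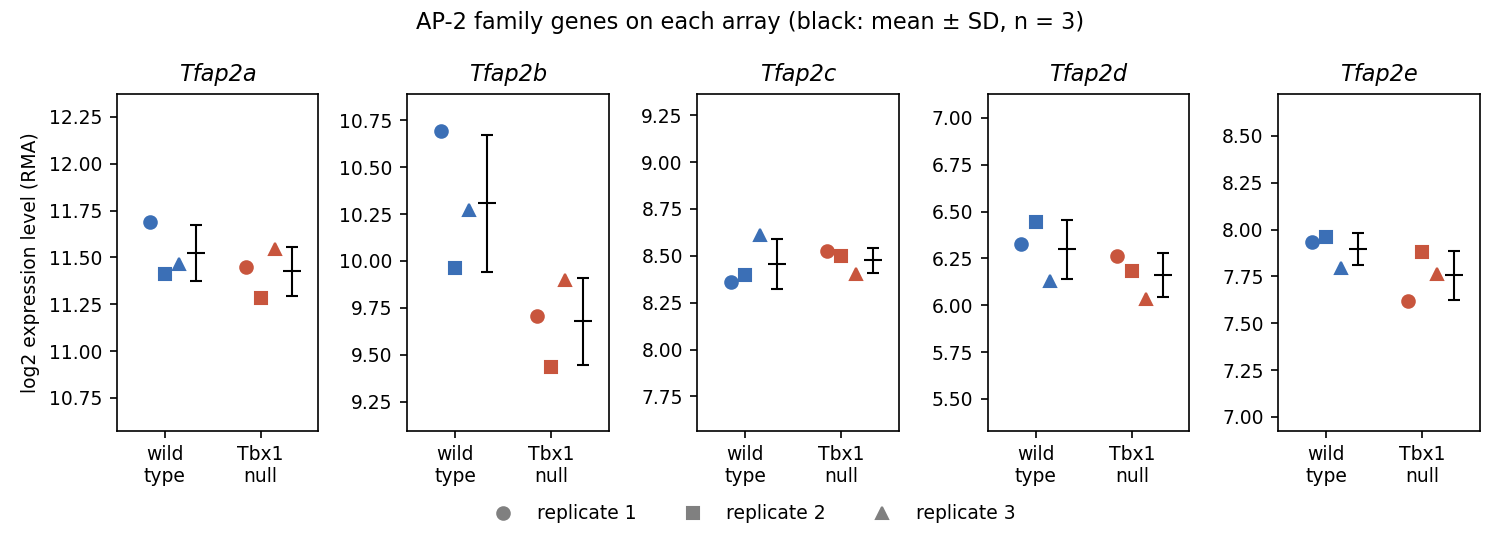
Log2 expression level of each AP-2 gene on each array, wild type in blue and Tbx1 null in red, with the symbol giving the replicate number and black marks the mean ± SD over 3 arrays; each panel spans the same number of log2 units. Only Tfap2b has no overlap between genotypes, with wild-type levels from 9.96 to 10.69 and Tbx1 null levels from 9.43 to 9.90.

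Tfap2a (probe set 10408798, Entrez gene 21418), which encodes AP-2 alpha, had log2 levels of 11.69, 11.41 and 11.47 on wild type replicates 1, 2 and 3. Its levels on Tbx1 null replicates 1, 2 and 3 were 11.45, 11.28 and 11.54. The genotypes overlapped, with wild type replicate 1 highest and Tbx1 null replicate 2 lowest. The log2 change was -0.10 (SE 0.09, 95% confidence interval -0.31 to 0.11, limma adjusted p = 0.811). That interval reaches down to a Tbx1 null level 0.807 times that of wild type and up to 1.08 times. The change shrank to -0.014 with wild type replicate 1 left out and to -0.027 with Tbx1 null replicate 2 left out. In the RefSeq gene table a long non-coding RNA, Gm26688, with the synonym Tfap2a-as1, overlaps Tfap2a, and whether the probes also read it was not tested.

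Tfap2c (probe set 10478997, Entrez gene 21420), which encodes AP-2 gamma, gave 8.36, 8.40 and 8.61 in wild type and 8.53, 8.50 and 8.40 in Tbx1 null, in the order of the replicate numbers. The genotypes overlapped and their means, 8.46 ± 0.13 and 8.475 ± 0.066, were close. The log2 change was 0.018 (95% confidence interval -0.15 to 0.19, limma adjusted p = 0.967), and its sign turned without wild type replicate 1 or 2 or without Tbx1 null replicate 1 (values in the range -0.030 to 0.094 when 1 array was left out). Tfap2e (probe set 10516419, Entrez gene 332937), which encodes AP-2 epsilon, gave 7.93, 7.96 and 7.80 in wild type and 7.62, 7.88 and 7.76 in Tbx1 null. Its genotypes overlapped through Tbx1 null replicate 2, and the log2 change was -0.14 (95% confidence interval -0.32 to 0.037, limma adjusted p = 0.638).

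Tfap2d (probe set 10345007, Entrez gene 226896), which encodes AP-2 delta, gave 6.33, 6.44 and 6.13 in wild type and 6.26, 6.18 and 6.03 in Tbx1 null. Its mean over the 6 arrays, 6.23, lay below 6.81, the first quartile of mean levels over all genes. No background probes were available, so whether this signal exceeded background could not be judged. The log2 change was -0.14 (95% confidence interval -0.35 to 0.071, limma adjusted p = 0.703). In the RefSeq gene table Tfap2d and Tfap2b are neighbouring protein-coding genes, with Pkhd1, the fibrocystin gene of polycystic kidney and liver disease, as the next coding gene beyond Tfap2b. Pkhd1 had a log2 change of -0.054 (limma adjusted p = 0.87), with 6.550 ± 0.098 in wild type and 6.496 ± 0.090 in Tbx1 null (SD, n = 3). Its arrays overlapped between genotypes, as did those of Tfap2d.

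**Figure D2:**
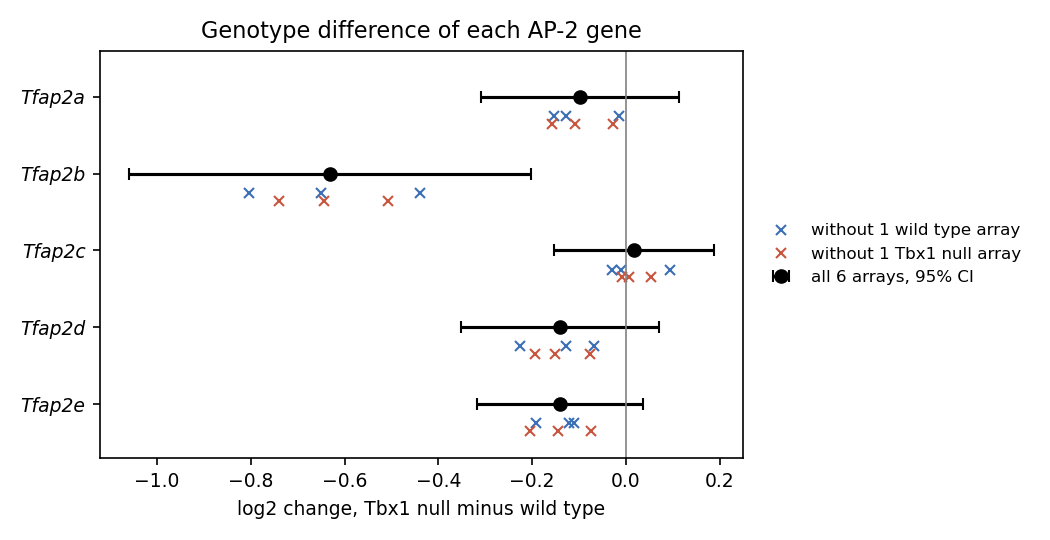
Log2 change of each AP-2 gene, Tbx1 null minus wild type, on the horizontal axis, with the black point and bar giving the limma estimate and its 95% confidence interval over 6 arrays and crosses the estimates with 1 array left out. The interval of Tfap2b runs from -1.06 to -0.20, and those of the other members include 0.

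The members' changes were also set against each other, as the difference between 2 members' log2 levels within each array. With 3 arrays against 3 the exact two-sided permutation test cannot go below p = 0.10, so none of the 10 pairs could pass, and the largest differences rest on the Tfap2b value known when the family was chosen. The differences are therefore given as descriptions. The within-array difference Tfap2b minus Tfap2a lay between -1.45 and -0.999 in wild type and between -1.85 and -1.65 in Tbx1 null, without overlap, and the log2 change of Tfap2b minus that of Tfap2a was -0.53 (SE 0.14). Against Tfap2c the difference of changes was -0.65 (SE 0.29), also without overlap. Against Tfap2d and Tfap2e it was -0.49 (SE 0.31) and -0.49 (SE 0.29), with overlap. The 6 pairs without Tfap2b had overlapping values and differences of changes from -0.12 to 0.16.

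Sequences upstream of the start sites are shown for Tfap2b, the member with the largest difference, for Tfap2a, whose arrays followed the same order, and for Tfap2d, the neighbour of Tfap2b. They come from RefSeq windows on GRCm38.p6, cut to the 250 bases before a start site; 4 of the 5 members had a window, 7 windows in all, and Tfap2c had none. Tfap2a has 2 windows and Tfap2d 3, and the 1 printed for each is the one that holds a match. Capitals mark matches to a T-box half-site (GTGTGA, or the longer GGTGTGA that contains it) or to a palindromic AP-2 motif, GCC and GGC with 3 or 4 bases of any kind between them, searched on both strands.
Tfap2b, chr1:19211804-19212053, plus strand: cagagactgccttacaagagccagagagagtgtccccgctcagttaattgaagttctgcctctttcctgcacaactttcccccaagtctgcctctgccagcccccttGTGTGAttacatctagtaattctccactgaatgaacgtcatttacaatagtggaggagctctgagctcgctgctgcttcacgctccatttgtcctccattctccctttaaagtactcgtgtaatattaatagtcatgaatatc
Tfap2a, chr13:40734921-40735170, minus strand: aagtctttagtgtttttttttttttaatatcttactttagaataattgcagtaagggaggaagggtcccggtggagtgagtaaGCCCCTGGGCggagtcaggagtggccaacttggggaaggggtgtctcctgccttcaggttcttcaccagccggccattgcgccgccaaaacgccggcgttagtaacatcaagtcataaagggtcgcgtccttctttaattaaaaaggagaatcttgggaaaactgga
Tfap2d, chr1:19103883-19104132, plus strand: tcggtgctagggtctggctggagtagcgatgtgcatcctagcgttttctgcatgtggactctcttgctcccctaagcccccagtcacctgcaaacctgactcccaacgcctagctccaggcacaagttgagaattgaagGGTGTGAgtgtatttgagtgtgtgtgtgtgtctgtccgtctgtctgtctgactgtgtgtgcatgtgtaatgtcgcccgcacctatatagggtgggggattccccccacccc
All 3 windows lie within the annotated span of their gene, which begins further upstream. The Tfap2b window held 1 match to GTGTGA, starting 143 bases before the start site, as 12.3% of all 32851 windows of this length did. The printed Tfap2d window held 1 match to GGTGTGA, starting 111 bases before the start, while its other windows, chr1:19102772-19103021 and chr1:19102786-19103035, held no match to any motif searched. The share of all windows with GGTGTGA, 3.33%, is per window and not per gene. The printed Tfap2a window held 1 match to the AP-2 motif with 4 bases between, starting 167 bases before the start, which 12.3% of windows held, and its other window, chr13:40733796-40734045, held none of the motifs. The motif with 3 bases between, held by 13.7% of windows, was in none of the 7. These matches describe letters in these windows and do not show binding.

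Within each genotype, the arrays of Tfap2a and Tfap2b stood in the same order. Wild type replicate 1 was highest and replicate 2 lowest, and in Tbx1 null replicate 3 was highest and replicate 2 lowest. Tfap2b deviated from its wild-type mean by 0.38, -0.35 and -0.038 on replicates 1, 2 and 3, and Tfap2a by 0.17, -0.11 and -0.057. In Tbx1 null the deviations were 0.025, -0.24 and 0.22 for Tfap2b and 0.022, -0.14 and 0.12 for Tfap2a. Tfap2c, Tfap2d and Tfap2e did not follow this order. Of all genes, 4.94% had the arrays of both genotypes in the order of Tfap2b, a share read here after the pattern had been seen.

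Markers of migrating neural crest cells and their glial derivatives followed the same arrays in part. Of 12 listed markers 10 were measured, and their mean log2 level was 8.97, 8.47 and 8.57 on wild type replicates 1, 2 and 3 and 8.36, 8.35 and 8.50 on Tbx1 null replicates 1, 2 and 3. Of the 10, 7 were highest on wild type replicate 1 and on Tbx1 null replicate 3, the arrays on which Tfap2b was highest, against 15.4% of all genes. The pattern was not particular to these markers: 9 of 16 reported AP-2 targets, 7 of 12 pharyngeal endoderm genes and 6 of 9 arch core mesoderm genes did so, as did 2 of 20 facial mesenchyme genes and 0 of 9 primitive erythroid genes. The full order of Tfap2b was shared by Sox10, which directs crest migration and glial fate, by Fabp7, a fatty acid binding protein of glial precursors, and by Erbb3, the neuregulin receptor of crest and Schwann cell precursors. RMA values have no true 0, so no marker could be called absent, and the part of these cells in the Tfap2b difference was not tested.

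Sox10 had log2 levels of 10.21, 8.86 and 9.16 on wild type replicates 1, 2 and 3 and of 8.60, 8.37 and 8.74 on Tbx1 null replicates 1, 2 and 3. Its genotypes did not overlap, and wild type replicate 1 stood far above the others. The log2 change was -0.85 (SE 0.31, limma adjusted p = 0.435). Ngfr, the low-affinity neurotrophin receptor, was the only 1 of the 10 markers past the threshold, against 0.16% of all genes. It fell by 0.70 on the log2 scale (SE 0.06, limma adjusted p = 0.0142). Ngfr was not called in 6 of the 15 alternative analyses. With 1 array left out its adjusted p rose above 0.05 without wild type replicate 2 (0.116) and without Tbx1 null replicate 1, 2 or 3 (0.0796, 0.133 and 0.0601). With the replicate number as a block it was 0.0663. The changes of Cdh19 and Fabp7 were -0.68 and -0.50 (limma adjusted p = 0.437 and 0.53), and that of Erbb3 was 0.00053 (0.9996). Of the 10 markers 6 had changes below 0, as did 53.5% of all genes, and 4 above 0. Besides Erbb3, those above 0 were Ednrb, Moxd1 and Mitf, at 0.20, 0.066 and 0.034 (limma adjusted p = 0.674, 0.898 and 0.903). At an unadjusted limma p under 0.05 there were 3 lower and 0 higher, against 3.94% and 5.5% of all genes. Without wild type replicate 1, on which most of these markers were highest, the change of Tfap2b was -0.44 (limma adjusted p = 0.427). Those of Sox10, Cdh19 and Fabp7 were -0.44, -0.37 and -0.23 (limma adjusted p = 0.356, 0.455 and 0.547). Those of Ngfr, Foxd3 and Dct were -0.64, -0.040 and -0.10 (limma adjusted p = 0.0407, 0.902 and 0.738). Those of Ednrb, Erbb3, Mitf and Moxd1 were 0.35, 0.21, 0.073 and 0.00053 (limma adjusted p = 0.10, 0.715, 0.732 and 0.999). The list's median change without that array was -0.070, against -0.13 over all arrays.

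**Figure D3:**
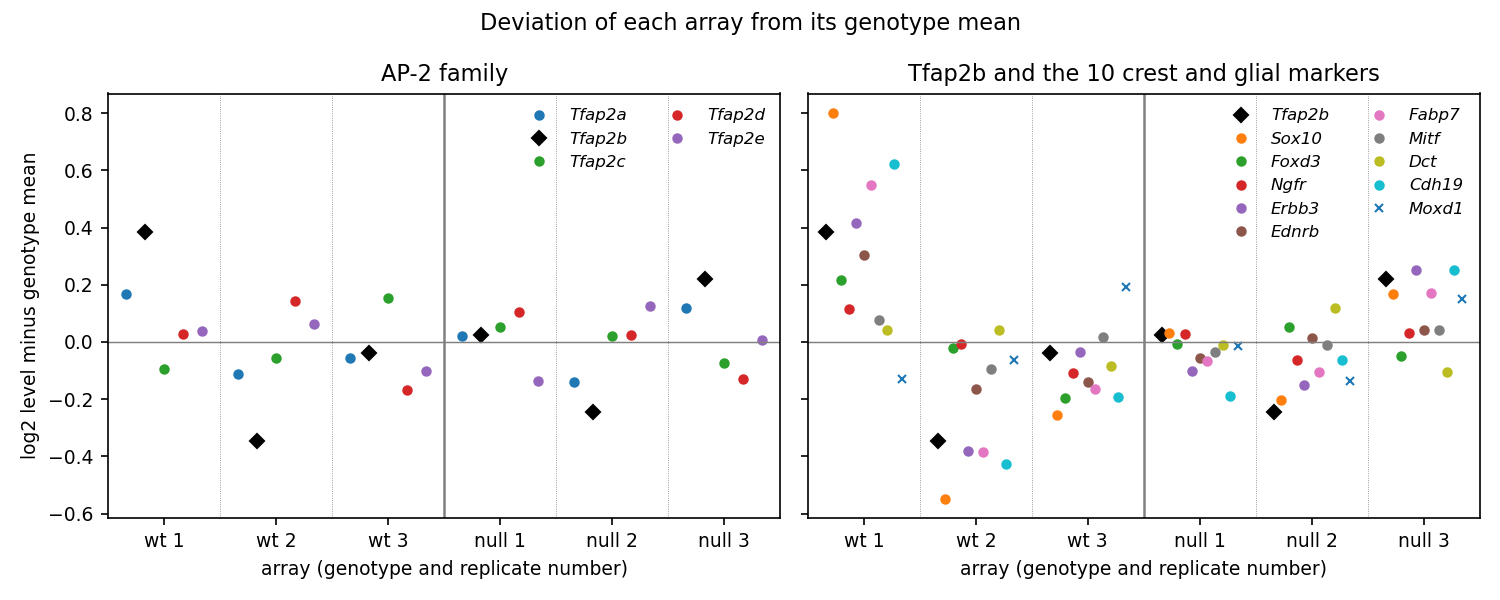
Deviation of each array's log2 level from its genotype mean, for the AP-2 genes (left) and for Tfap2b with the 10 measured crest and glial markers (right), with the 6 arrays along the horizontal axis. Tfap2b is highest on wild type replicate 1 (0.38) and Tbx1 null replicate 3 (0.22), and Sox10 deviates by 0.80 and 0.17 on those arrays.

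The genes whose levels over the 6 arrays were most like those of Tfap2b, by Pearson's r among 5018 named genes with an SD of at least 0.1, were Pkdcc (r = 0.997), Kcnj2 (0.993), Tox2 (0.992), Otx2 (0.989) and Gpc4 (0.989). Pkdcc is a secreted protein kinase of skeletal growth, Kcnj2 an inward rectifier potassium channel, Tox2 a high-mobility-group box protein, Otx2 a homeobox factor of the anterior head and Gpc4 a cell-surface glypican. All 5 had smaller changes than Tfap2b, from -0.35 for Gpc4 to -0.17 for Tox2, and none passed (limma adjusted p from 0.391 to 0.475). Without wild type replicate 1 the change of Gpc4 was -0.21 and that of Otx2 -0.22, and Kcnj2 stood at -0.16. Most like Tfap2a were Sgpp2 (0.995), Pamr1 (0.993), Bche (0.981), Enpp3 (0.979) and Fzd7 (0.978), whose changes ran from -0.28 to -0.096 (limma adjusted p from 0.653 to 0.813). Without wild type replicate 1 these changes were nearly gone for Sgpp2 (-0.013), Pamr1 (-0.0083), Bche (-0.027) and Fzd7 (-0.028), and that of Enpp3 was -0.12. Fzd7 is a Wnt receptor and Bche the butyrylcholinesterase gene. These genes were picked as the highest of all those compared, over only 6 arrays, and their r is a description with no test.

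Cofactors and regulators of AP-2 proteins had changes close to 0 as a list. Of 13 listed genes 11 were measured and 0 passed over all genes. At an unadjusted limma p under 0.05 there were 0 higher and 1 lower, against 5.5% and 3.94% of all genes. The median log2 change was 0.0069 and ran from -0.00037 to 0.034 with 1 array left out, below 0 without Tbx1 null replicate 2. The lower one was Cited4, a member of the CITED family that links AP-2 to the acetyltransferases p300 and CBP. It had log2 levels of 10.06, 9.95 and 9.93 in wild type and 9.68, 9.73 and 9.68 in Tbx1 null, without overlap, and a change of -0.28 (SE 0.05, limma adjusted p = 0.123). Crebbp and Ep300, the genes of those acetyltransferases, had changes of 0.075 and 0.075, and Kdm5b, a histone demethylase reported to work with AP-2, of 0.056 (limma adjusted p = 0.76, 0.82 and 0.808). The AP-2 inhibitors Kctd1 and Kctd15 had changes of 0.028 and 0.024.

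Neural crest specification genes, among which AP-2 factors act early, went both ways. All 15 were measured and 1 passed over all genes, as did 0.16% of all genes. At an unadjusted limma p under 0.05 there were 2 higher and 3 lower, against 5.5% and 3.94% of all genes. The median change was -0.085 (-0.11 to -0.040 with 1 array left out, the value nearest 0 without wild type replicate 1). Msx2, a homeobox gene induced by BMP, was the one that passed and rose from 11.801 ± 0.064 to 12.189 ± 0.021 (SD, n = 3; limma adjusted p = 0.0422). It did not pass with any 1 of the 6 arrays left out (adjusted p from 0.0865 to 0.205). Its relative Msx1 had log2 levels of 10.63, 10.90 and 11.05 in wild type and 11.43, 11.32 and 11.16 in Tbx1 null, without overlap (change 0.44, adjusted p = 0.239). The proto-oncogene Myc had a change of -0.15 (adjusted p = 0.291). Sox9, the crest and cartilage factor, had a change of 0.0054, and Foxd3 and Pax3, factors of premigratory crest, of -0.15 and -0.18 (limma adjusted p = 0.986, 0.706 and 0.648).

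Facial mesenchyme patterning genes, through which crest cells of the arch take on jaw identity, also went both ways. Of 24 listed 20 were measured and 0 passed over all genes. At an unadjusted limma p under 0.05 there were 6 higher and 3 lower, against 5.5% and 3.94% of all genes. The median change was 0.031. With 1 array left out it ran from 0.014 without Tbx1 null replicate 1 to 0.080 without wild type replicate 2. Prrx2, a paired-related homeobox gene, varied little within a genotype, with means of 12.274 ± 0.012 and 12.500 ± 0.019 (change 0.23, limma adjusted p = 0.116). Hand1, which encodes a basic helix-loop-helix factor of the distal arch, had levels of 9.61, 9.80 and 9.84 in wild type and 10.45, 10.27 and 10.05 in Tbx1 null (change 0.50, limma adjusted p = 0.157). Emx2 and Gsc, homeobox genes, had changes of -0.34 and -0.22 (limma adjusted p = 0.239 and 0.263). In contrast to Tfap2b, the list's mean level was lowest on wild type replicate 1 (10.12, against 10.33 and 10.34) and on Tbx1 null replicate 3 (10.26, against 10.43 and 10.36).

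Surface ectoderm genes, markers of the other tissue of the arch in which AP-2 factors act, had changes above 0 throughout. Of 20 listed 18 were measured, 18 lay above 0 and 0 passed over all genes; at an unadjusted limma p under 0.05 there were 8 higher, against 5.5% of all genes, and 0 lower, and the median change was 0.14. Markers of some other cell types lay the other way. All 9 measured primitive erythroid genes were lower at an unadjusted limma p under 0.05, against 3.94% of all genes. Their changes ran from -0.40 to -0.17 with no overlap between genotypes, where 7.06% of all genes were lower without overlap. Of 9 arch core mesoderm genes 8, Tbx1 among them, had changes below 0, as did 53.5% of all genes. So did 11 of 14 neuronal and 8 of 11 endothelial genes. Changes above 0 were not particular to surface ectoderm, with 8 of 12 pharyngeal endoderm genes above 0 and 4 below. Of 20 facial mesenchyme genes, 13 lay above 0 and 7 below. Krt8 and Krt18 stood in both the ectoderm and the endoderm list. The mean level of the erythroid list lay between 10.35 and 10.42 in wild type and between 10.05 and 10.12 in Tbx1 null. The mean level of the surface ectoderm list lay between 9.65 and 9.70 in wild type and between 9.81 and 9.84 in Tbx1 null. The 4 of lowest p were Pitx1, a homeobox gene of the oral ectoderm and arch (change 0.33, limma adjusted p = 0.0962), the basal keratin Krt14 (0.43, 0.137), Trp63, which encodes p63 of basal epithelium (0.23, 0.172), and Krt17 (0.23, 0.279). Tfap2a, Tfap2b and Tfap2c, also genes of surface ectoderm, had changes of -0.10, -0.63 and 0.018. The part of ectoderm, blood or mesoderm content in these values was not tested.

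Genes reported as AP-2 targets in other cells were not called. Of 17 listed 16 were measured and 0 passed over all genes, with a median change of 0.042. At an unadjusted limma p under 0.05 there were 2 higher and 0 lower, against 5.5% and 3.94% of all genes. The higher ones were Hoxa2, which AP-2 sites help to activate in crest cells of the second arch, and Krt14. Krt14 and Cdh1 also stood in the surface ectoderm list, whose 18 measured genes all had changes above 0. Hoxa2 had log2 levels of 6.53, 6.73 and 6.85 in wild type and 8.33, 7.44 and 7.66 in Tbx1 null (change 1.11, limma adjusted p = 0.126). Its wild-type mean, 6.70, lay below 6.81, the first quartile of mean levels over all genes. Without Tbx1 null replicate 1 its change was 0.85. Ret, a receptor tyrosine kinase gene, and Mcam, a cell adhesion gene, had overlapping arrays and changes of 0.21 and -0.22 (limma adjusted p = 0.535 and 0.569); without wild type replicate 3 that of Ret was 0.12, and without wild type replicate 1 that of Mcam was -0.12.

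**Figure D4:**
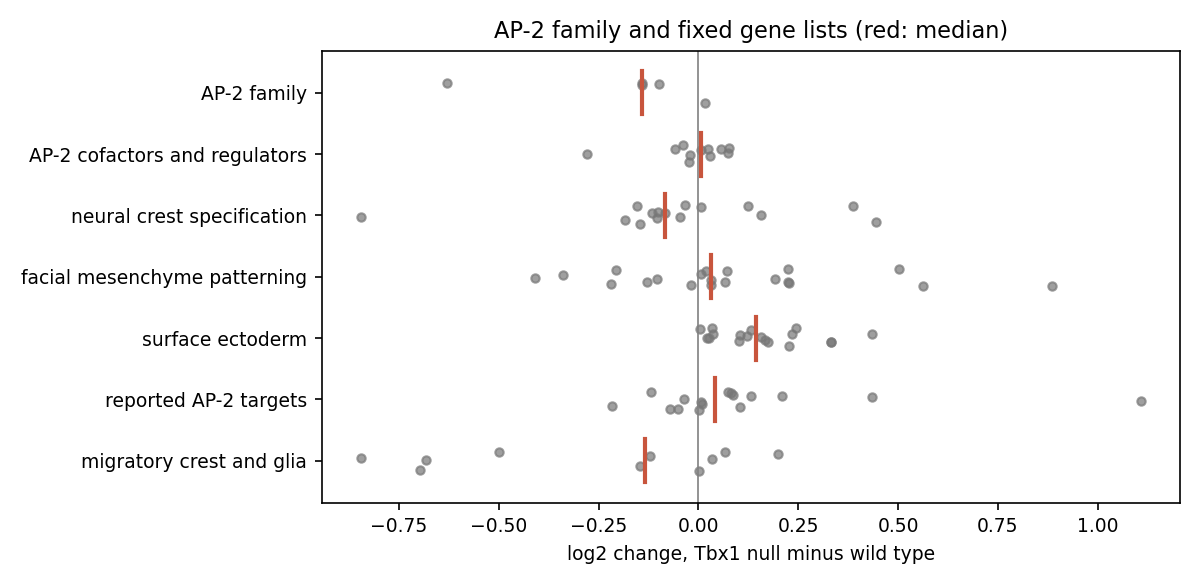
Log2 change, Tbx1 null minus wild type, of each measured gene of the AP-2 family and of 6 gene lists (grey points, spread vertically for display only), with the list median as a red line. The family median lies at -0.14 with Tfap2b at -0.63, and all 18 surface ectoderm genes lie above 0.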

How the data were processed

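Total RNA of E9.5 mandibular arches was hybridised to 6 arrays, 3 of each genotype, after labelling of 300 ng per the labels' protocols. The authors deposited RMA values on the log2 scale, 1 per probe set; the submitters' processing notes name Affymetrix Expression Console 1.1. RMA corrects background, draws the distributions of the arrays together and summarises probes, which hides any shift common to most genes and tends to understate changes of dim probe sets. Genome build: not given in the sources used here. Values ran from 3.63 to 14.6, as log2 intensities do. No array was a copy of another (at most 50 identical values between any pair).

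Gene symbols came from the annotation of the array platform. Of 35556 probe sets, 21789 had 1 symbol, 1621 several and 12146 none. Entrez IDs of 21698 probe sets matched a RefSeq gene table (GRCm38.p6), which changed 0 symbols. The highest-mean probe set stood for each of 19938 genes. The comparison used limma 3.58.1 (lmFit and eBayes, two-sided, no covariate; R 4.3.3) and p-values adjusted by Benjamini-Hochberg over all genes, with a threshold of 0.05. Changes are Tbx1 null minus wild type. The fit was tested on simulated data. The members, gene lists and tests were chosen with earlier results of these data known. Named genes were the members, Tbx1, genes past the threshold and up to 4 of lowest p per pathway list, the 5 genes most like Tfap2b and Tfap2a, and chromosomal neighbours; Kctd1, Kctd15, Sox9, Foxd3, Pax3, arch markers and crest markers were named from the lists beside these, outside that rule and with their values already seen, as were Hoxb2 and the other genes of the last section. Core mesoderm, neuronal and endothelial marker lists were also read. Their median changes were -0.53, -0.078 and -0.040, with 2 (Tbx1 itself and Lhx2, both lower), 0 and 0 genes called. Primitive erythroid and pharyngeal endoderm lists had medians of -0.30 and 0.058 and 0 called. At an unadjusted limma p under 0.05, 9 of 9 erythroid genes were lower, and of 12 endoderm genes 4 were higher and 1 lower. Over all genes 3.94% were lower and 5.5% higher. Alternatives were a replicate block, leaving out each array, quantile normalisation again, median centring, filters on low levels, an intensity trend, array weights, means of probe sets and every probe set.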

Additional observations from a re-analysis of the deposited data

How the results depend on the processing

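In all 15 alternatives 0 AP-2 members passed the threshold; the filter at the first quartile of mean level left Tfap2d untested, and the filter at the median also left out Tfap2c and Tfap2e. The change of Tfap2b kept its direction in all of them (-0.80 to -0.44), as did those of Tfap2a (-0.16 to -0.014), Tfap2d (-0.22 to -0.069) and Tfap2e (-0.20 to -0.073) where tested. Tfap2c ran from -0.030 to 0.094 with 1 array left out. Members at an unadjusted p under 0.05 numbered 3 without wild type replicate 3 and with array weights, and 2 without Tbx1 null replicate 2. The share of all genes under that p in these fits was not computed, so these counts cannot be set against it. The 4 differences between Tfap2b and other members kept their direction in 8 alternatives each.

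Over all genes the count of 32 ran from 3 to 20 with 1 array left out; it was 96 with an intensity trend, 334 with array weights and 4 with every probe set. Among the pathway lists, 1 gene was called; the count was 0 in each fit with 1 array left out, 0 with median centring and with every probe set, 3 with an intensity trend and 8 with array weights. The median of reported AP-2 targets ran from 0.031 to 0.10 with 1 array left out. Erbb3 ran from -0.19 to 0.21 with 1 array left out and was -0.019 after quantile normalisation and -0.014 after centring; Mitf ran from -0.012 to 0.073 and was -0.016 with means of probe sets; Moxd1 ran from -0.0095 to 0.16. The cause was not tested.

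With 3 arrays a genotype, correlations of deviations cannot decide whether replicate numbers paired the arrays. Deviations of same-numbered arrays correlated at -0.045, 0.26 and 0.15. Wild type replicates 2 and 3 correlated best with their own number, and wild type replicate 1 with Tbx1 null replicate 3 (0.12). With the replicate number as a block 6 genes passed over all genes and 0 in the pathway lists. For Tfap2b the block gave an SE of 0.116 and a limma p of 0.00179 (adjusted p = 0.183). Without the block these were 0.185 and 0.00978. With the block 2 members had an unadjusted p under 0.05, and the share of all genes under that p was not computed for this fit. Signal over background could not be judged.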

Other observations

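With the difference between genotypes taken out, the genes whose deviations from the genotype means were most like those of Tfap2b over the 6 arrays were Chpt1 (r = 0.999), Gpc4 (0.999), Pcyt1b (0.998), Slc37a4 (0.997) and Irx5 (0.997). Chpt1 and Pcyt1b encode enzymes of phosphatidylcholine synthesis, and Irx5 is an Iroquois homeobox gene. Their changes between genotypes ran from -0.35 for Gpc4 to 0.049 for Chpt1, and of these 5 genes only Gpc4 also stood among the 5 genes most like Tfap2b over all 6 arrays. For Tfap2a the closest by the same measure were Tbc1d12 (0.998), Sgpp2 (0.995), Enpp3 (0.993), Hoxb2 (0.993) and Pamr1 (0.992). Hoxb2, a gene of the hindbrain and second arch, had a change of 0.63 (limma adjusted p = 0.0577), against -0.10 for Tfap2a. All genes of this section were picked as the highest of 5018 compared, over only 6 arrays. Their r is a description with no test.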
